A study of Mus musculus with 6 samples.

Results

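Id1, Id2, Id3, Id4, Smad6, Smad7, Bambi and Atoh8, which BMP signalling is known to switch on directly, were followed in 6 whole mammary tumours. They were found as every probe set (a group of array probes for 1 transcript) that bears exactly 1 of these gene symbols in the authors' deposited table. There were 11 such probe sets for the 8 genes, of 45037 probe sets tested in all: 3 for Id2, 2 for Smad7 and 1 for each other gene. The 3 Bmp4 tumours grew from 4T1.2 cells, a mouse mammary carcinoma line, that carried the retroviral vector pBabepuro with the murine Bmp4 gene. The 3 control tumours grew from 4T1.2 cells with the vector alone. All hosts were female Balb/c mice of 6 to 8 weeks, which keep their own immune and stromal cells, and all tumours came from 100000 cells placed in the mammary fat pad and were taken at about 0.3 g. The labels state neither whether the 2 lines were pools or single clones nor whether each tumour came from its own mouse. The p-values therefore measure the spread between these tumours.

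BMP ligands such as BMP4 bind paired type I and type II receptors, which phosphorylate SMAD1, SMAD5 and SMAD9. These enter the nucleus with SMAD4 and bind the regulatory DNA of target genes. The ID proteins, helix-loop-helix proteins without a DNA-binding region, are classic targets and bind E proteins so that these cannot activate genes of differentiation. SMAD6 and SMAD7 are inhibitory SMADs, and BAMBI is a receptor-like protein with no kinase; all 3 are made in response to the signal and damp it. ATOH8 is a basic helix-loop-helix factor that is a BMP target in endothelial and liver cells.

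No member passed the threshold, an adjusted p under 0.05 over all 45037 probe sets by limma, a linear model that pools the spread over probe sets. By the size of the difference, the members were nevertheless sorted into 2 kinds, a description of these values that was not tested. For Smad6, Id1, Smad7 and 2 of the 3 Id2 probe sets, the lowest Bmp4 tumour exceeded the highest control tumour. Of all probe sets, 10.6% did so with 6 arrays and 14.0% without control tumour 1. Those member probe sets differed by at least 0.54 on the log2 scale with or without control tumour 1. The weakest of these, Smad7 1443771_x_at, kept no such size under other scalings, where it was as low as 0.089. Id3, Id4, Bambi, Atoh8 and the third Id2 probe set differed by at most 0.33 in size once control tumour 1 was left out. With all 6 arrays Id3 differed by 1.37, more than Smad7 1443771_x_at at 0.65. With 5 arrays and 1 more tumour left out, the sizes of the 2 kinds overlapped. Smad7 1443771_x_at then ran from 0.28 to 0.80, Id3 from -0.021 to 0.54 and Atoh8 from 0.17 to 0.50. Bambi and Atoh8 also had every Bmp4 tumour above every control tumour, so that separation alone did not divide the 2 kinds. The plot of levels by tumour shows all 66 values.

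**Figure D1:**
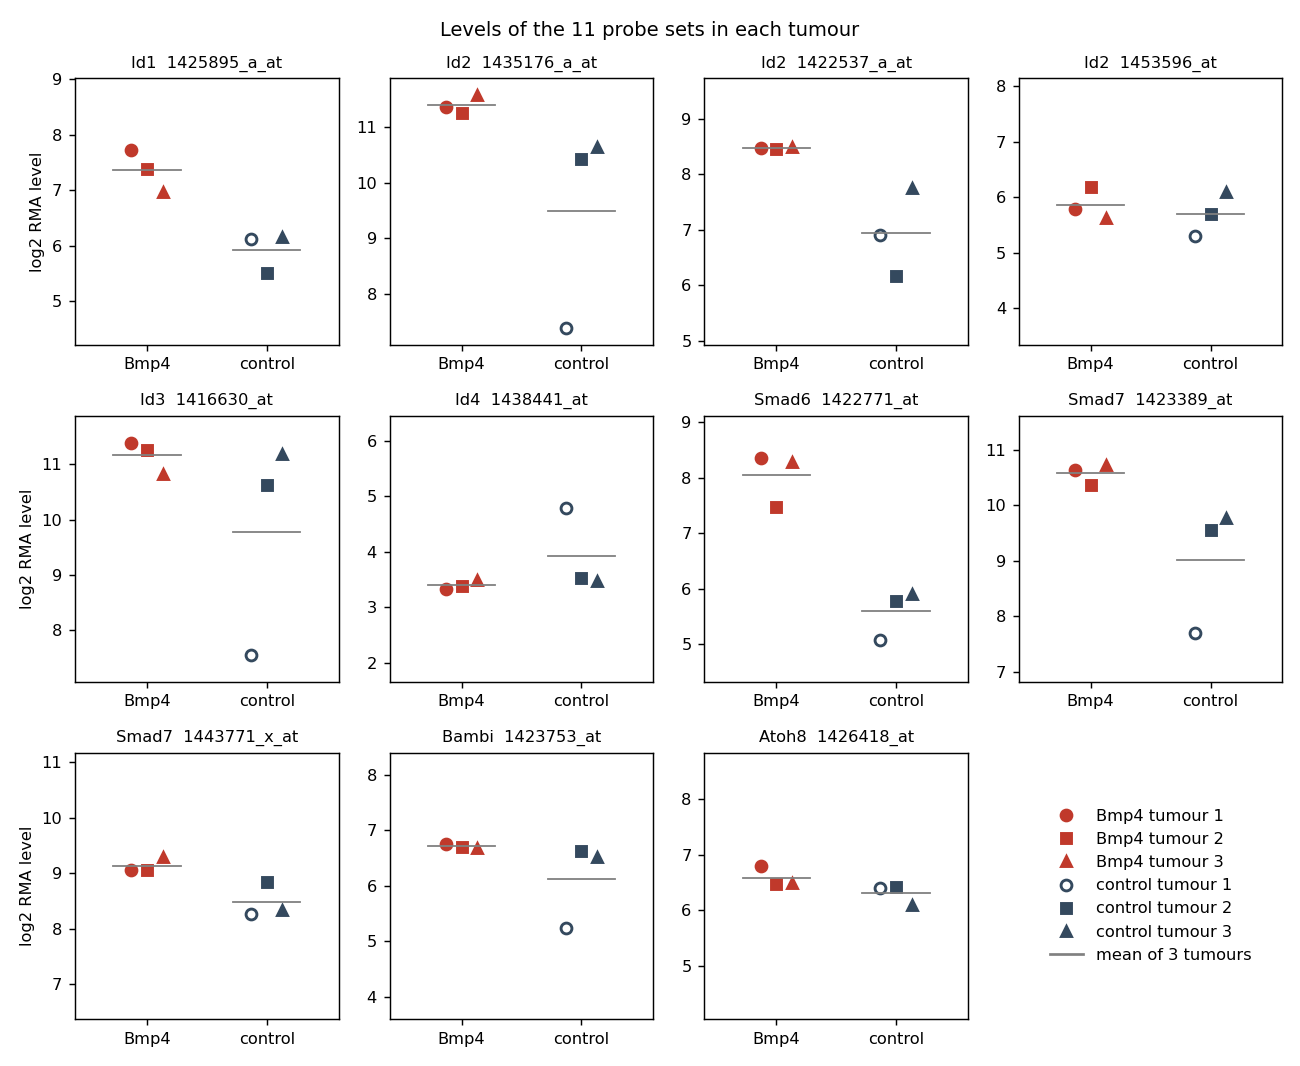
Log2 RMA level (vertical axis) of each of the 11 probe sets in the 3 Bmp4 tumours and the 3 control tumours; each symbol is 1 tumour, the open circle is control tumour 1 and the line is the mean of 3. Every vertical axis spans at least 4.8 log2 units. In Smad6 the Bmp4 tumours sit between 7.47 and 8.36 and the control tumours between 5.08 and 5.91.

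One array, from control tumour 1, was unlike the rest, so each comparison is given with all 6 arrays and again with 5, leaving it out. Its log2 values had a correlation of 0.654 to 0.720 with those of the other arrays, and any pair of those others had 0.961 to 0.993; these run over probe sets, not over replicates. The middle 50% of its values spanned 2.25 log2 units, where the others spanned 3.35 to 3.77. The log2 ratios of the authors' deposited table correlated across probe sets at 0.965 with the differences without control tumour 1 and at 0.749 with those of all 6, and so are closer to 5 arrays without equalling them. Actb, whose 3' signal exceeds its 5' signal more in degraded RNA, had a 3' minus 5' log2 difference of 1.44 to 2.33 in Bmp4 tumours and 2.62 to 5.64 in control tumours. The same difference for Gapdh was 1.62, 3.13 and 2.42 in the Bmp4 tumours and 2.46, 5.31 and 3.93 in the control tumours, so there the groups overlapped and control tumour 1 lay within the Bmp4 range. The hybridization controls of the arrays averaged 10.04, 10.04 and 10.30 in the Bmp4 tumours and 13.01, 11.23 and 10.66 in the control tumours. Leaving out control tumour 1 therefore did not remove every difference between the arrays of the groups. With 5 arrays the groups stayed apart in these controls and in the Actb and Gapdh differences. The part of RNA quality and of these array differences in the results below was not tested. Krt8, a keratin of glandular epithelium, was at 12.80 to 13.03 in Bmp4 tumours and 12.10 to 13.02 in control tumours. It lay above the 75th percentile of every array (7.29 to 8.00) and so was readily measured. Of the other epithelial markers listed, Krt18 (9.8 to 12.1) also did so. Krt14 (4.94 to 6.21) and Cldn4 (6.12 to 7.11) lay below that percentile on every array. Cdh1 (5.14 to 8.15) exceeded it only in control tumours 2 and 3, and Epcam (7.49 to 8.35) only in the control tumours.

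The regulatory DNA just before 3 of the genes is shown to set a gene with a wide difference (Smad6), a gene whose probe sets disagreed (Id2) and a gene whose groups overlapped (Id3) side by side. Of the 8 members, 5 matched the promoter table used here, which is from RefSeq, build GRCm38.p6. Each of the 3 windows printed covers the 200 bases from 250 to 51 bases before the start that table uses, read 5′ to 3′ on the gene's strand, outside any annotated gene. For Smad6 the annotated gene reaches upstream of that start, so its window lies closer to the gene's outer end. Capitals mark GGCGCC, a GC-rich motif known from BMP-responsive elements, and GTCTG on either strand (CAGAC on the other), a SMAD-binding box. The windows are chr9:64022110-64022309 (minus strand) for Smad6, chr12:25096143-25096342 (minus strand) for Id2 and chr4:136143572-136143771 (plus strand) for Id3.
Smad6: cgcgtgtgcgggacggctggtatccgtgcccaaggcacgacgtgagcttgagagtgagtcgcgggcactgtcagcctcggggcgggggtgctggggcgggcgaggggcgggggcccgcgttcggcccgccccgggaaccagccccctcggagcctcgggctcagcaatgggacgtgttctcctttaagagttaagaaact
Id2: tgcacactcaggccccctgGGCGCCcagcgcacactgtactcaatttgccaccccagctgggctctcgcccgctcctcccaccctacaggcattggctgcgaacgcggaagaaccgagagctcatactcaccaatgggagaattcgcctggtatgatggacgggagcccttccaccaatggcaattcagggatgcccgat
Id3: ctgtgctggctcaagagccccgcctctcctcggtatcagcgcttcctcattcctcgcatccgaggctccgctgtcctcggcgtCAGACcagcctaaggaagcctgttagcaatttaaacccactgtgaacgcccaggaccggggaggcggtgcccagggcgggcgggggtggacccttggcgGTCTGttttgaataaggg
The Id2 window held GGCGCC 1 time, and so did the Id4 window, which lies in the annotated gene A330033J07Rik. In the windows of 27025 promoters of the same length, 7.11% held it. Id3 held GTCTG 2 times, a box found in 35.7% of the windows. The Smad6 window held neither. The E-box CANNTG, the site of basic helix-loop-helix factors, was found 1 time in Id2 and 2 times in Atoh8, whose window overlaps the annotated Atoh8 gene, and in 58.9% of all windows. No matches of different motifs overlapped. These are matches of letters in short windows, not measured binding.

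Among the Id genes, Id1 differed alike with and without control tumour 1. Its probe set 1425895_a_at read 7.73, 7.39 and 6.96 in Bmp4 tumours 1 to 3, against 6.12, 5.50 and 6.15 in control tumours 1 to 3. The lowest Bmp4 tumour lay above the highest control tumour. The means were 7.36 ± 0.39 in Bmp4 tumours and 5.92 ± 0.37 in control tumours (SD, n = 3 each), a difference of 1.44 ± 0.32 (SE; limma adjusted p = 0.499), or 2.71-fold. Without control tumour 1 the difference was 1.53 ± 0.29 (SE; limma adjusted p = 0.270).

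Id2, the ID protein that innate and cytotoxic lymphocytes need for their development, gave a mixed picture over its 3 probe sets. Probe set 1422537_a_at read 8.47, 8.46 and 8.49 in the Bmp4 tumours, against 6.91, 6.17 and 7.76 in the control tumours. The Bmp4 tumours were almost level with each other and all above the controls, of which tumour 2 was lowest. The difference was 1.52 ± 0.42 (SE; limma adjusted p = 0.499), and 1.51 ± 0.43 (SE; adjusted p = 0.314) without control tumour 1. With 5 arrays it ranged from 0.71 when control tumour 2 was also left out to 2.30 when control tumour 3 was, so its size rests on which control is used. Probe set 1435176_a_at read 11.37, 11.26 and 11.58 in the Bmp4 tumours and 7.37, 10.43 and 10.64 in the control tumours. The groups again did not overlap, but control tumour 1 lay about 3 units below the other controls. The difference was 0.87 ± 0.16 (SE; limma adjusted p = 0.270) without that tumour, against 1.92 ± 0.87 (SE; adjusted p = 0.499) with it. Probe set 1453596_at read 5.79, 6.18 and 5.62 in the Bmp4 tumours and 5.31, 5.70 and 6.09 in the control tumours. Here the groups overlapped, and the difference was 0.16 ± 0.30 (SE) with 6 arrays and -0.03 ± 0.22 (SE) with 5, a sign that also turned under centring on the 75th percentile. All 3 probe sets carry the same RefSeq transcript, NM_010496, in the authors' deposited table.

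Id3, which is expressed in lymphocytes and endothelium among other cells, was not separated between the groups. Its probe set 1416630_at read 11.39, 11.26 and 10.82 in the Bmp4 tumours, against 7.56, 10.61 and 11.18 in the control tumours. Control tumour 3 lay above Bmp4 tumour 3, and control tumour 1 alone was far below the rest. The difference was 1.37 ± 0.93 (SE; limma adjusted p = 0.499) with all arrays. With 5 arrays the value was 0.26 ± 0.25 (SE; adjusted p = 0.628), with a 95% confidence interval of -0.34 to 0.86. That value was -0.021 with control tumour 2 also left out and 0.54 with control tumour 3 left out instead.

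Id4 was dim on its probe set 1438441_at, which lay below the 25th percentile of the array in all 6 tumours. It read 3.33, 3.38 and 3.50 in the Bmp4 tumours and 4.79, 3.53 and 3.48 in the control tumours. Control tumour 1 was the only value that stood out, on an array whose own 25th percentile was the highest (5.04). The difference of -0.53 ± 0.40 (SE) became -0.10 ± 0.14 (SE) without it, and neither passed (limma adjusted p = 0.499 and 0.729). No difference in Id4 was detectable at this brightness on this probe set.

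Of the inhibitory SMADs, Smad6, which acts mainly on the BMP branch, had the widest difference of the 8 genes. Its probe set 1422771_at read 8.36, 7.47 and 8.29 in the Bmp4 tumours, against 5.08, 5.78 and 5.91 in the control tumours. A gap of more than 1.5 units lay between the lowest Bmp4 tumour and the highest control tumour. The mean was 8.04 ± 0.49 in Bmp4 tumours and 5.59 ± 0.45 in control tumours (SD, n = 3 each). The difference was 2.45 ± 0.37 (SE; 95% confidence interval 1.56 to 3.34; limma adjusted p = 0.499), or 5.46-fold, and 2.19 ± 0.29 (SE; interval 1.49 to 2.89; adjusted p = 0.216), or 4.57-fold, without control tumour 1. Ranked by limma's p, Smad6 was number 10 of 45037 probe sets with 6 arrays and number 48 with 5. Only 0.389% and 0.0577% of probe sets had a larger difference in the 2 settings. It ranged from 2.03 to 2.48 when any 1 of the 5 remaining tumours was left out.

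Smad7, which restrains both the BMP and the TGF-beta branch, had a positive difference on both of its probe sets. Probe set 1423389_at read 10.63, 10.36 and 10.74 in the Bmp4 tumours, against 7.70, 9.56 and 9.78 in the control tumours. The groups did not overlap, and control tumour 1 was again far below the other controls. The difference was 1.56 ± 0.57 (SE; limma adjusted p = 0.499), and 0.90 ± 0.17 (SE; adjusted p = 0.270) without control tumour 1. Probe set 1443771_x_at, of the type whose probes can also match other transcripts, read 9.05, 9.06 and 9.29 in the Bmp4 tumours and 8.26, 8.85 and 8.33 in the control tumours. It separated the groups as well, by a narrow gap to control tumour 2. Its difference was 0.65 ± 0.26 (SE) with 6 arrays and 0.54 ± 0.20 (SE; limma adjusted p = 0.348) with 5, so the probe sets gave the same direction and different sizes. Under quantile normalization it was 0.089 (limma adjusted p = 0.886) with 6 arrays and 0.40 with 5, and under centring on the 75th percentile 0.35 and 0.43. Centring on the array median gave 0.83 and 0.61. The 5-array value was 0.28 with control tumour 3 also left out and 0.80 with control tumour 2 left out instead.

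Bambi and Atoh8 separated the groups by margins under 0.1. Bambi, on probe set 1423753_at, read 6.75, 6.70 and 6.68 in the Bmp4 tumours, against 5.25, 6.62 and 6.52 in the control tumours. Its difference of 0.58 ± 0.41 (SE) with 6 arrays was 0.14 ± 0.13 (SE; limma adjusted p = 0.633) with 5, with a 95% confidence interval of -0.18 to 0.46. Most of the wider value thus came with control tumour 1. Atoh8, on probe set 1426418_at, read 6.79, 6.46 and 6.49 in the Bmp4 tumours and 6.41, 6.41 and 6.09 in the control tumours. Its difference was 0.28 ± 0.24 (SE) with 6 arrays, where its sign turned under centring on the 75th percentile, and 0.33 ± 0.18 (SE; limma adjusted p = 0.446; interval -0.11 to 0.77) with 5. The 5-array value was 0.17 with control tumour 3 also left out and 0.50 with control tumour 2 left out instead. For neither gene did the interval exclude 0.

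**Figure D2:**
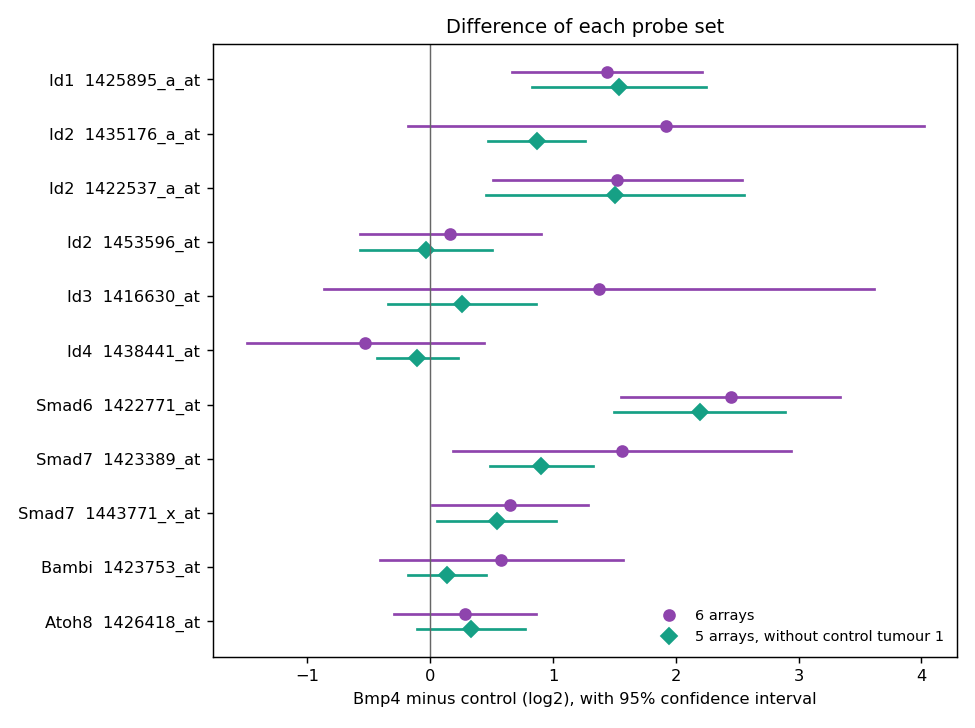
Bmp4 minus control on the log2 scale (horizontal axis) for each probe set, with limma's 95% confidence interval, for all 6 arrays (circles) and for 5 arrays without control tumour 1 (diamonds). With 5 arrays the intervals of Id1, Smad6, both Smad7 and 2 Id2 probe sets lie above 0, while Id3, Id4, Bambi, Atoh8 and Id2 1453596_at span 0. The sign of Id2 1453596_at depends on the scaling in either setting, and that of Atoh8 only with 6 arrays.

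Counted together, 0 of the 11 probe sets passed limma's adjusted threshold in either setting, where 0% of all probe sets passed as higher with 6 arrays and 0.00222% with 5, and 0% and 0.00666% as lower. At an unadjusted p under 0.05, 5 of 11 were higher with 6 arrays, against 3.89% of all probe sets, and 6 of 11 with 5 arrays, against 7.70%. As lower at that level there were 0 of 11 in both settings, against 1.81% and 5.72% of all probe sets. Those higher at that level came from 4 genes in both settings: Id1, Id2, Smad6 and Smad7. The groups did not overlap, with the Bmp4 tumours above, in 8 of 11 probe sets of 6 genes with 6 arrays, where 10.6% of all probe sets did so. With 5 arrays it was again 8 of 11, against 14.0%. Most members were bright, since 9 of 11 had a mean above the median of all means. Among probe sets above that median the shares were higher: 18.8% and 21.4% did not overlap, and 6.67% and 13.2% were higher at an unadjusted p under 0.05, with 6 and 5 arrays. The difference was positive in 10 of 11 with 6 arrays, against 38.0% of all probe sets, and in 9 of 11 with 5, against 41.2%. The median difference of the 11 was 1.37 with 6 arrays and 0.54 with 5, against -0.20 and -0.06 over all probe sets and 0.33 and 0.038 over those above the median of means. Probe sets of 1 gene share a transcript and all share the arrays, so these counts describe and do not test the group.

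**Figure D3:**
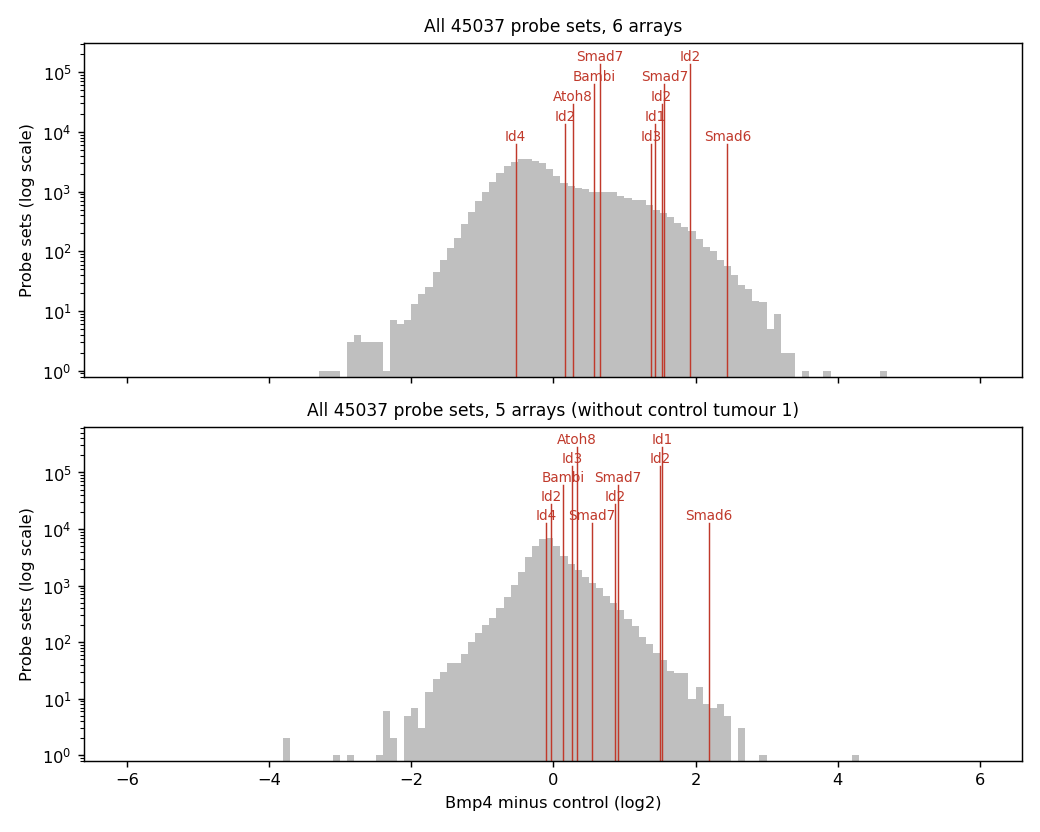
Number of probe sets (vertical log axis) by their difference, Bmp4 minus control on the log2 scale (horizontal axis), for 6 arrays (top) and 5 arrays (bottom); red lines mark the 11 probe sets. Smad6, at 2.45 and 2.19, lies in the right tail in both panels, while Id3 moves from 1.37 in the top panel to 0.26 in the bottom panel.

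The authors' deposited table, an analysis of variance, gave its 5 highest member ratios to the same 5 probe sets as the 5-array differences. Its ratio of Bmp4 over control was 4.22 for Smad6, 2.94 and 1.86 for the Id2 probe sets 1422537_a_at and 1435176_a_at, 2.79 for Id1 and 1.88 for Smad7 1423389_at. Among the 11, the authors' deposited table gave 5 an unadjusted p under 0.05, namely those of Smad6, Smad7 1423389_at, Id2 1435176_a_at, Id1 and Atoh8, where 4.09% of all probe sets were higher at that level. For all 5, the adjusted p in the authors' deposited table was 0.523. Id4 was the only member with a ratio below 1 there (0.927), since Id2 1453596_at had 1.08 in the authors' deposited table and -0.032 on the log2 scale with 5 arrays.

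The ligand and the steps upstream of these targets were read from gene lists, each gene by its brightest probe set. Bmp4 itself read 5.04, 4.94 and 5.51 in the Bmp4 tumours and 6.48, 5.93 and 4.99 in the control tumours, so the probe set did not show the enforced gene as higher. No source used here says whether its probes match the inserted sequence, and it was therefore not taken as a check of the labels. Of 8 BMP receptor genes, 0 passed the adjusted threshold; the median difference was 0.43 with 6 arrays and -0.04 with 5. Bmpr1a, a type I receptor, read 10.85, 10.74 and 10.82 in Bmp4 tumours and 7.88, 10.16 and 9.81 in control tumours, and Acvr1, another, differed by 0.65 without control tumour 1. Both separated the groups, 2 of 8 in either setting, against 10.6% of all probe sets with 6 arrays and 14.0% with 5. Bmpr1b and Acvrl1 did so in the other direction, by differences of -0.09 and -0.08 with 5 arrays. With 5 arrays Acvr2a, at -0.47, made this 3 of 8, against 19.0% of all probe sets. With 6 arrays it was 2 of 8, against 14.9%. Bmpr1b lay below the 25th percentile on 5 of the 6 arrays. Of 6 listed signal-carrying SMADs 4 were measured (Smad1, Smad5, Smad2 and Smad3), and 0 passed. Only Smad1 and Smad5 of these are among the SMADs named above that BMP receptors phosphorylate. Smad1 read 10.73, 10.86 and 11.16 in the Bmp4 tumours and 7.94, 11.32 and 11.19 in the control tumours. With 5 arrays Smad1 differed by -0.34, Smad5 by 0.24, Smad3 by 0.10 and Smad2 by 0.72. In that setting Smad2 lay above and Smad1 below both controls, 1 of 4 each, against 14.0% and 19.0% of all probe sets. Smad2 also separated the groups with 6 arrays. The SMAD partners that restrain the signal, Smurf1, Ski, Skil and Tob1, all had a positive difference in both settings, and 0 of 4 passed. Of all probe sets, 38.0% were positive with 6 arrays and 41.2% with 5. The median of the 4 was 1.03 with 6 arrays and 0.37 with 5. Control tumour 1 was lowest in each, as in Tob1 at 4.53. Ski separated the groups with the Bmp4 tumours above, 1 of 4 in either setting, against 10.6% and 14.0% of all probe sets.

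Of 15 measured genes from a list of other BMP-SMAD targets, 5 had a positive difference with 6 arrays and 4 with 5, where 38.0% and 41.2% of all probe sets did. Their median differences were -0.38 and -0.16. With 5 arrays 1 passed limma's adjusted threshold: Tnfrsf11b, the decoy receptor osteoprotegerin. It read 8.65, 8.40 and 9.15 in the Bmp4 tumours, against 3.23, 4.67 and 4.28 in the control tumours, and differed by 4.26 ± 0.26 (SE; adjusted p = 0.0349). With 6 arrays its adjusted p was 0.499, and with 5 no probe set passed once Bmp4 tumour 1, Bmp4 tumour 3, control tumour 2 or control tumour 3 was also left out, or without variance moderation. Gata3 and Runx2, transcription factors of luminal epithelium, lymphocytes and bone, differed by 0.67 and 0.59 with 5 arrays. With Tnfrsf11b they were the 3 of 15 that separated the groups with the Bmp4 tumours above, against 14.0% of all probe sets. In the other direction 4 of 15 separated the groups, against 19.0%: Dlx3, Dlx5, Sp7 (-0.33) and Snai2 (-0.60). With 6 arrays the same 3 and 4 did so, against 10.6% and 14.9%. Msx1, Msx2, Dlx3 and Dlx5, homeobox genes that BMP induces in embryonic tissues, differed by -0.48, -0.13, -0.16 and -0.17 in the same setting. Of the 3 E proteins that ID proteins bind, Tcf12 differed by 0.44 with 5 arrays, Tcf3 by -0.43 and Tcf4 by -0.72; none passed.

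**Figure D4:**
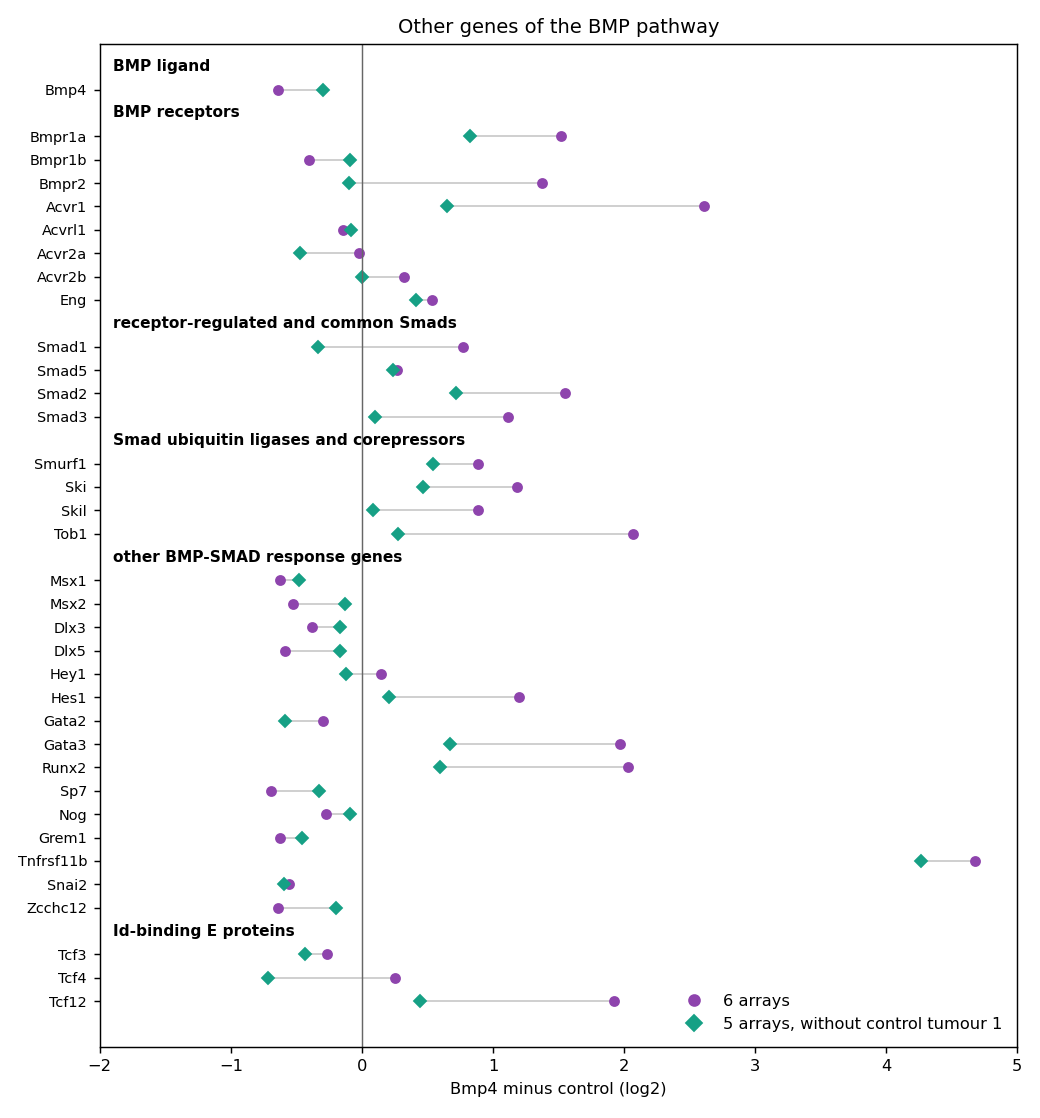
Bmp4 minus control on the log2 scale (horizontal axis) for the other genes of the pathway, grouped by role, with 6 arrays (circles) and 5 arrays (diamonds). Tnfrsf11b stands alone at 4.68 and 4.26, while Acvr1 sits at 2.61 with 6 arrays and 0.65 with 5.

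Several members are also expressed by host cells, and in RNA of whole tumours more cells of a type and more RNA per cell cannot be told apart. The mean of 6 T cell markers was 8.65, 8.55 and 8.69 in the Bmp4 tumours, against 6.50, 6.39 and 7.68 in the control tumours. Of these markers 5 of 6 separated the groups with the Bmp4 tumours above in either setting, against 10.6% of all probe sets with 6 arrays and 14.0% with 5, and none lay below the 25th percentile on all arrays. By that mean, control tumour 2 was the lowest control and control tumour 3 the highest. Of the single markers, Cd2 and Cd5 had this order. Control tumour 1 was the lowest in Cd3d, Cd3g and Lck, and the highest of all tumours in Cd3e, at 9.25. Id2 1422537_a_at and Id1 had the order of the mean, though Id1 read 6.12 and 6.15 in control tumours 1 and 3. In Smad6, both Smad7 probe sets and Id2 1435176_a_at, control tumour 1 was lowest, as in Cd3d, Cd3g and Lck. The 5 NK cell markers averaged 7.00, 7.02 and 7.69 in the Bmp4 tumours and 6.62, 6.14 and 6.70 in the control tumours. Klrd1, Nkg7 and Prf1 separated the groups with the Bmp4 tumours above, 3 of 5 in either setting. Ncr1 and Klrb1c had negative differences in both. The defining NK receptor Ncr1 lay below the 25th percentile on 3 arrays. The 6 macrophage markers averaged 10.33 to 11.39 in Bmp4 tumours and 8.03 to 10.39 in control tumours, so those means overlapped. All 6 macrophage markers still had a positive difference in both settings, with a median of 2.03 with 6 arrays and 1.36 with 5. Lyz2 and Fcgr3 separated the groups with the Bmp4 tumours above, 2 of 6 in either setting. The part of these cells in the Id1, Id2, Smad6 and Smad7 differences was not tested.

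Endothelial cells are also known to express Smad6, Id1 and Id3. Their 9 markers averaged 6.89 to 7.13 in Bmp4 tumours and 6.44 to 7.67 in control tumours. With 6 arrays 5 of 9 had a positive difference and the median was 0.05. In that setting 1 of 9 separated the groups with the Bmp4 tumours below, against 14.9% of all probe sets. With 5 arrays 2 of 9 were positive and the median was -0.53. There 6 of 9 had the Bmp4 tumours below, against 19.0% of all probe sets. With 5 arrays Cdh5, the cadherin of endothelial junctions, differed by -0.63 and Kdr, a VEGF receptor, by -0.72. The 2 positive ones were Pecam1 at 0.18 and Emcn at 0.027. The part of endothelial cells in the Smad6, Id1 and Id3 values was not tested. Markers of epithelial cells averaged 8.46 to 8.58 in Bmp4 tumours and 7.89 to 8.83 in control tumours, and those of fibroblasts 10.82 to 10.92 in Bmp4 tumours and 8.45 to 11.32 in control tumours; in both lists control tumour 1 was the lowest. With 5 arrays 3 of 6 epithelial markers had the Bmp4 tumours below both controls, against 19.0% of all probe sets. The differences were -1.25 for Cdh1, -0.64 for Cldn4 and -0.37 for Epcam. The keratins Krt8, Krt18 and Krt14 went the other way, at 0.12, 0.096 and 0.28. Of fibroblast markers 2 of 6 lay below both controls, Col1a1 at -1.32 and Pdgfrb at -0.89. The other 4 were positive: Pdgfra at 0.31, Dcn at 0.22, Lum at 0.17 and Col1a2 at 0.0076. With 6 arrays 2 of 6 epithelial and 1 of 6 fibroblast markers lay below, against 14.9% of all probe sets. None of these passed the adjusted threshold. The 3 measured adipocyte markers averaged 8.46 to 8.49 in Bmp4 tumours and 7.08 to 8.58 in control tumours.

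**Figure D5:**
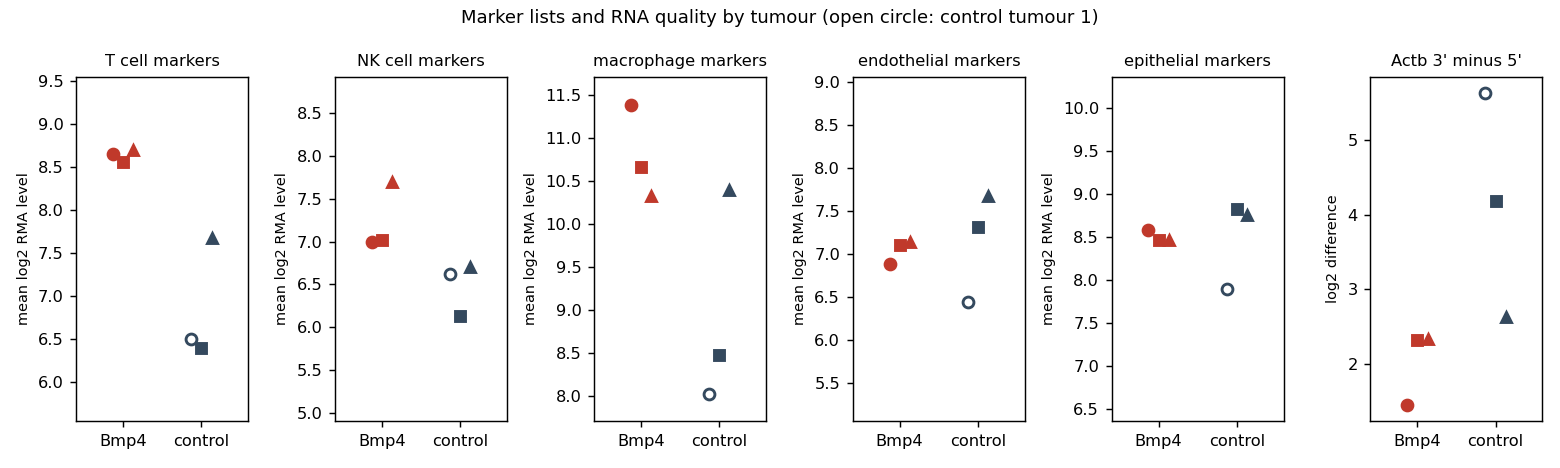
Mean log2 RMA level of 5 marker lists and the Actb 3' minus 5' log2 difference (vertical axes) in each Bmp4 and control tumour; the open circle is control tumour 1. T cell markers lie higher in every Bmp4 tumour (8.55 to 8.69) than in any control tumour (6.39 to 7.68), and the Actb difference lies lower (1.44 to 2.33, against 2.62 to 5.64).

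The profile over the 6 tumours of each member's brightest probe set was compared with those of 19463 probe sets of other genes whose mean lay above the median, each centred on its own mean. The closest to Id1 were Prkcq, a protein kinase C of T cells, and Tcf7, a transcription factor of T cells, at root mean square distances of 0.15 and 0.19 log2 units. Prkcq read 8.77, 8.66 and 8.04 in the Bmp4 tumours and 7.28, 6.81 and 7.65 in the control tumours. The closest to Smad6 were Bxdc5 (0.20) and Scara5, a ferritin receptor (0.25). Scara5 read 9.83, 9.73 and 9.97 in the Bmp4 tumours and 7.13, 7.70 and 7.89 in the control tumours. For Id2 1435176_a_at they were Myo6 and Zcchc11 (0.082 and 0.090), for Smad7 Pnrc2 and Nufip2 (0.061 and 0.079), and for Id3 Wasf2 and 2310016E02Rik (0.074 and 0.11), in all of which control tumour 1 was lowest. Bambi was closest to Cdk2ap2 and Adprh, Atoh8 to Galt and Cog5, and Id4 to Gpr50 and Pold1, at distances of 0.025 to 0.069. With 6 points per profile and 1 array apart, such likeness is a description of these arrays.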

How the data were processed

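RNA of 6 tumours was hybridised to Affymetrix 3' expression arrays, 1 per tumour. The authors deposited log2 RMA levels, 1 for each probe set and array; RMA and Partek 6.6 are the tools listed in the submitters' processing notes. No source used here says which arrays went into 1 normalization. Per the file headers, the authors also deposited an analysis of variance, with p-values, F scores, a Bmp4-to-control ratio and a fold change per probe set; its F and sums of squares fit 3 residual degrees of freedom, as 5 arrays in 2 groups give.

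Of 45101 probe sets, 64 array controls were left out. The other 45037 were tested with limma 3.58.1 under R 4.3.3 (moderated, two-sided), Bmp4 minus control, with Benjamini-Hochberg adjustment over all of them and no filter on dim probe sets. An exact permutation test of 3 against 3 cannot go below p = 0.1, so single probe sets rest on limma's pooled spread. The number of arrays limits the precision. The members, the lists and the rule for named genes (all member probe sets, the listed pathway genes and the 2 nearest profiles) were chosen with earlier results of these data known. Symbols are those of the authors' deposited table; list genes absent under their symbol were looked up through RefSeq synonyms. Same-numbered tumours did not deviate together (r = -0.13, -0.22 and -0.04 across probe sets), so tumour number was not used as a pairing. The scripts were tested on simulated data.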

Additional observations from a re-analysis of the deposited data

Results flagged for a closer look

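Probe set 1423259_at was not among the 11, because the authors' deposited table gives it 2 symbols, Id4 and LOC100045546. It read 7.65, 7.48 and 7.53 in the Bmp4 tumours, against 5.96, 6.25 and 6.20 in the control tumours, so signal outside the main measurement lay above the control level in every Bmp4 tumour. The difference was 1.42 ± 0.22 (SE; limma adjusted p = 0.499), and 1.33 ± 0.14 (SE; adjusted p = 0.141) without control tumour 1. The other probe set with these symbols, 1423260_at, read 6.50, 6.75 and 6.70 in the Bmp4 tumours and 8.59, 6.82 and 6.33 in the control tumours, with differences of -0.60 ± 0.59 (SE) and 0.076 ± 0.19 (SE). The 2 probe sets thus disagreed, and which transcript each one measures was not tested.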

How the results depend on the processing

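With 6 arrays 0 probe sets passed by limma, 2563 did at an unadjusted p under 0.05 (5 members), 53 with gene-by-gene array weights and 0 to 4 with 1 tumour left out; the p of the authors' deposited table gave 4129 (5 members). Under array weights 1 member passed, Smad6 (2.33, adjusted p = 0.0367; its adjusted p ran from 0.0367 to 0.724 over the alternatives). These weights were chosen after seeing the data, because limma's default (restricted maximum likelihood) did not converge on 6 arrays; the default is not reported. With 5 arrays 4 probe sets passed, 7 after centring on the 75th percentile, 1 among probe sets above the median of means, 0 without variance moderation, 2 with array weights, 2 at adjusted p under 0.01, 6043 unadjusted (6 members) and 0 to 2 with 1 tumour left out. The authors' deposited table had 4129 by p (5 members) and 0 by adjusted p. With tumour number as a replicate block, a pairing the data do not bear out, 0 passed in place of 4.

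Of 178 member values with 6 arrays, 173 kept direction and side of the threshold, and 160 of 167 with 5. The sign turned for Id2 1453596_at with 6 arrays under centring on the 75th percentile (-0.14) and array weights (-0.020), and over single omissions it ran from -0.032 to 0.36. With 5 arrays it turned under quantile normalization (0.045), median centring (0.036) and the replicate block (0.0046), and ran from -0.23 to 0.17 over omissions. Atoh8 turned with 6 arrays under centring on the 75th percentile (-0.022). Id3 with 5 arrays ran from -0.021 to 0.54 over omissions. The cause was not tested. Centring on the 75th percentile moved the median of all probe sets by -0.30 with 6 arrays, and median centring by 0.18. A mean above the 25th percentile was reached by 10 of the 11 probe sets and one above the median by 9.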
